A study of Homo sapiens with 24 samples.

Results

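The 6 genes described here carry the core of cytosolic DNA sensing in human cells, and they were taken by name from a table of 60609 gene rows measured by RNA sequencing. They are the sensors CGAS and IFI16, the adaptor STING1, the kinases TBK1 and IKBKE, and the nuclease TREX1. All 6 were found in the table, 1 row each. The rule named them by their place in the pathway and used no measured value. Earlier results of these data were known when the genes were chosen. All 6 passed the filter for testing, at least 1 TPM (a transcript's share of the library, corrected for its length and scaled to 1000000) in at least 3 libraries, as did 16062 genes in all.

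In this pathway CGAS binds double-stranded DNA in the cytosol and makes the second messenger cGAMP, which binds STING1 on the endoplasmic reticulum. STING1 then moves to the Golgi and recruits TBK1 and its relative IKBKE, which phosphorylate the transcription factor IRF3 and so start the production of type I interferon. TREX1 removes cytosolic DNA before it is sensed, and type I interferon is known to raise the transcripts of several components of the pathway in turn.

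The libraries came from A549, an established line of human lung adenocarcinoma cells with epithelial character. All cells were transfected with siRNA for 48 h, either a commercial pool against BOP1 (siBOP1), which encodes a factor of large ribosomal subunit assembly, or an siRNA against firefly luciferase as the control (siFLuc). They were then mock treated or given interferon beta (IFN) at 1000 U/mL, and polyadenylated RNA was sequenced after 8 h or 12 h. Each of the 8 combinations of siRNA, treatment and time has 3 libraries, 24 in all, from 1 cell line and 1 siRNA pool. The question for these genes is how far IFN moved them and whether BOP1 depletion changed their level or their response.

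BOP1 lay between 10.0 and 19.5 TPM in the siBOP1 libraries and between 32.4 and 78.8 TPM in the siFLuc libraries. Relative to the control, its mean was 28.1% (8 h) and 23.5% (12 h) without IFN, and 29.6% (8 h) and 24.1% (12 h) with it. Of the epithelial markers KRT18 reached 1785 to 2862 TPM and EPCAM 1.92 to 5.48 TPM, and CDKN2A, which is deleted in A549, was listed at 0 in all 24 libraries. Of 8 blood and stromal markers, 6 stayed under 1 TPM in every library and 2 of them were at 0 throughout. The exceptions were COL1A1, a collagen chain (5.37 to 19.3 TPM), and CD14, a monocyte marker (1.81 to 5.26 TPM), which reached the level of EPCAM or above, and their part in the results was not tested. The columns of each group are numbered 1, 2 and 4, and values below follow that order. The libraries numbered 4 stood apart at 12 h: Pearson r of log2 values within a group was 0.961 to 0.977 for pairs with a library numbered 4, and 0.985 to 0.988 between those numbered 1 and 2. The siFLuc mock library at 12 h numbered 4 decides several values of CGAS, which are therefore given with and without it. Depth is unknown because TPM keeps none, and the labels do not say whether libraries of a group came from separate cultures, so p-values measure only the spread between these libraries.

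The promoters of 4 of the genes were available as RefSeq windows on GRCh38.p14, running from 250 bases before to 50 bases after a start site, for IFI16 (2 start sites), TBK1, IKBKE and TREX1. They are shown because these 4 genes were all called with IFN and differ in the size of their response, from IFI16 and TREX1 to TBK1. CGAS and STING1 had no window. On both strands 3 motifs were searched. They were the interferon-stimulated response element, taken as 2 copies of GAAA with any 2 bases between them, the shorter IRF core AANNGAAA, which every copy of the element also contains, and the gamma-activated site TTCNNNGAA. Capitals mark the letters that matched the IRF core. The windows lie at chr1:159009657-159009956 (IFI16, the second start site), chr1:206470226-206470525 (IKBKE), chr3:48465580-48465879 (TREX1) and chr12:64451870-64452169 (TBK1), all on the plus strand.
IFI16: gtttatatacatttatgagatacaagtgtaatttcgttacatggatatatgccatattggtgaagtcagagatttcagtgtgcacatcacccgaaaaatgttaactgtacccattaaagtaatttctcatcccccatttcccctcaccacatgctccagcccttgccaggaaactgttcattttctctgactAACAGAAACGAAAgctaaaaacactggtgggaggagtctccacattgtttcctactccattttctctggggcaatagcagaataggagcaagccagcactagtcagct
IKBKE: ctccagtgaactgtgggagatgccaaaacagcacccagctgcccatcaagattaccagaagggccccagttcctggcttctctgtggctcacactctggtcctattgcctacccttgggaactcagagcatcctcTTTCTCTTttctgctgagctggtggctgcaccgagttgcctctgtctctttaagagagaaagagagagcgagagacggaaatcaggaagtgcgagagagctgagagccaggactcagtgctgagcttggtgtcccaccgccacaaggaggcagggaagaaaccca
TREX1: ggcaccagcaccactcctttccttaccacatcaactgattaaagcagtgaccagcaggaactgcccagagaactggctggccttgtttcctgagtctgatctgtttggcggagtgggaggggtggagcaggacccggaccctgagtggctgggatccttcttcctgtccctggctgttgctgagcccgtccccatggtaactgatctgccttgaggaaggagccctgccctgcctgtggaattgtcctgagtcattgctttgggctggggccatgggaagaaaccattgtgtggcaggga
TBK1: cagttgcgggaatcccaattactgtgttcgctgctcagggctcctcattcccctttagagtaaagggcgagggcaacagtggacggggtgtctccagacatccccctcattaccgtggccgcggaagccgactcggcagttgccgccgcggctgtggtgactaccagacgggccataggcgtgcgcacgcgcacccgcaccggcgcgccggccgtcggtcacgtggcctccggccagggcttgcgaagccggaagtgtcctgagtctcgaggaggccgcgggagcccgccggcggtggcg

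The full response element matched in 0 of the 5 windows, while 3.57% of all 35116 RefSeq windows of this length held it. The IRF core matched in both IFI16 windows and in the IKBKE window, and 22.8% of all windows held it. In the IFI16 window shown, 2 overlapping copies, AACAGAAA and AAACGAAA, began 58 and 53 bases before the start site. The other IFI16 window, at chr1:159008741-159009040, held 1 match of the IRF core and is not shown. Both IFI16 windows lie inside the gene span given below, which begins at 158999968. In the IKBKE window the match was on the other strand, as TTTCTCTT from 115 bases before the start site. The gamma-activated site matched in 0 of the 5 windows and in 7.66% of all windows. A match describes letters only, and a missing match says only that they are not in this window.

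Treatment with IFN raised 5 of the 6 genes in each of the 4 comparisons with mock cells. IFI16 rose most on the log2(TPM + 1) scale and as a ratio of means, and TBK1 least of those called. On the log2(TPM + 1) scale TREX1 came second, before STING1 and IKBKE, but as a ratio of means STING1 was close to TREX1 at 12 h (8.31 and 8.25 with siFLuc, 7.11 and 7.25 with siBOP1). CGAS did not pass in the fit reported, which ignores the column number. Fits with the column number as a block called it with siFLuc at 8 h and with siBOP1 at both times, as given below. In limma, with adjustment over all genes tested, 5 of 6 were called higher in siFLuc cells at 8 h, where 5.77% of all genes were, and at 12 h, where 7.06% were. The siBOP1 comparisons likewise called 5 of 6, against 5.99% of all genes after 8 h and 7.17% after 12 h. Among the 5, STING1 passed the filter only through its IFN libraries. The IFN libraries lay wholly above the mock libraries for 6 of 6 genes in siFLuc cells at 8 h (9.92% of all genes), 5 of 6 at 12 h (11%), and 6 of 6 in siBOP1 cells at 8 h (10.1%) and 12 h (12.4%). STING1 is in each of these counts and in the medians that follow, and for the same reason it adds nothing to them. The median of the 6 log2 differences was 0.96, 1.26, 0.99 and 1.35 in these 4 comparisons, and that of all genes tested was -0.09, -0.06, -0.14 and -0.08. In bulk RNA, a change in the number of cells that express a gene and a change per cell cannot be told apart.

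**Figure D1:**
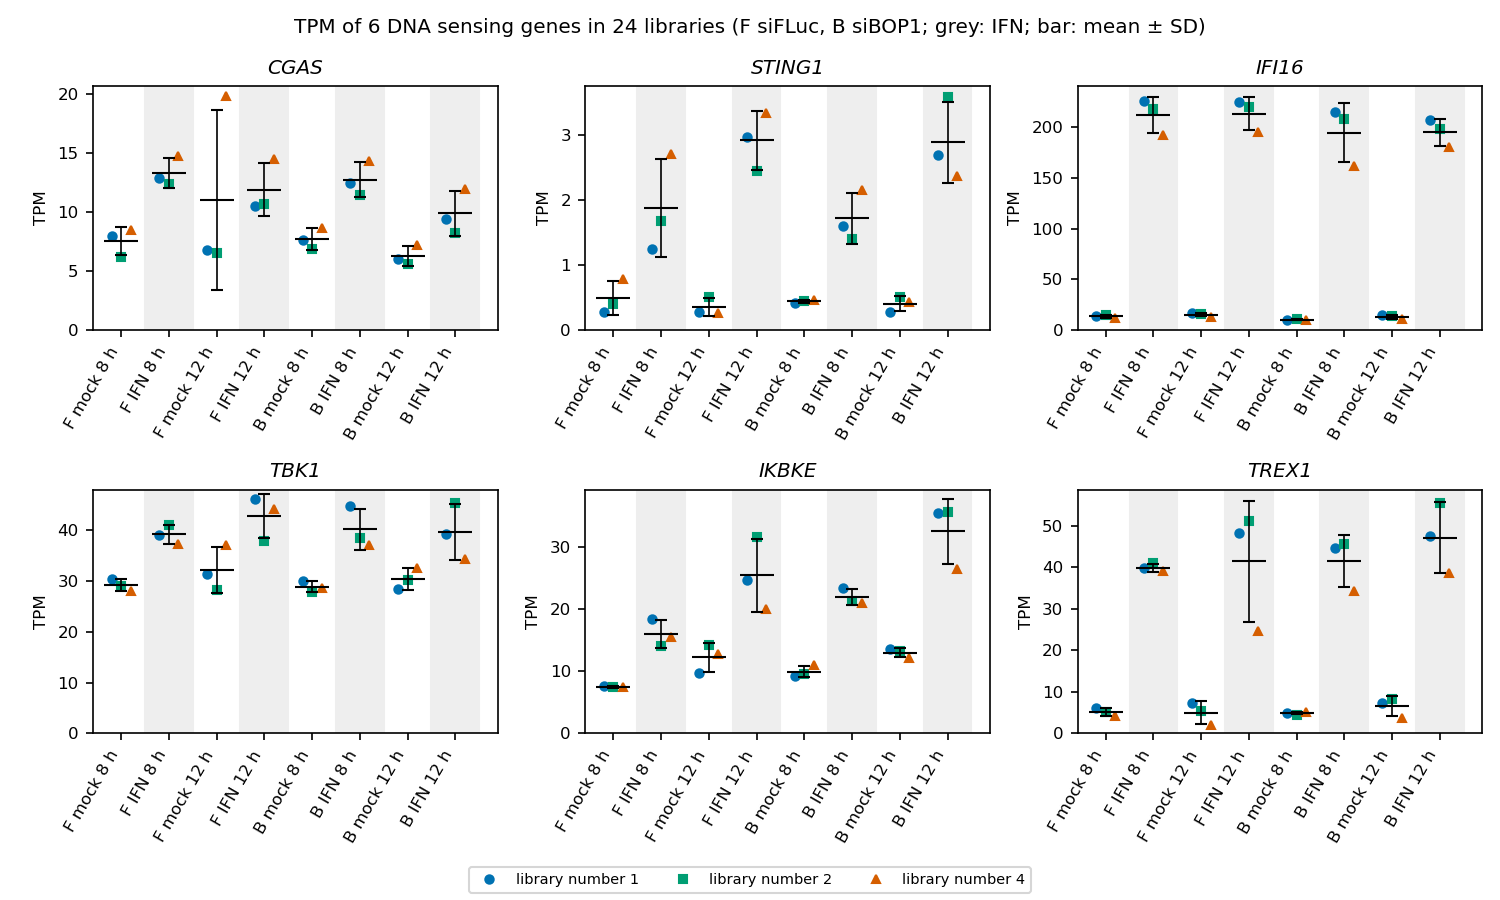
TPM of each gene (y axis, linear, from 0) in the 24 libraries, grouped by siRNA, treatment and time on the x axis, with points for single libraries by column number, bars for the mean ± SD of 3 libraries, and grey for IFN. IFI16 and TREX1 separate widely with IFN, STING1 stays under 0.79 TPM in mock cells, and the CGAS point at 19.8 TPM is the siFLuc mock library at 12 h numbered 4.

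**Figure D2:**
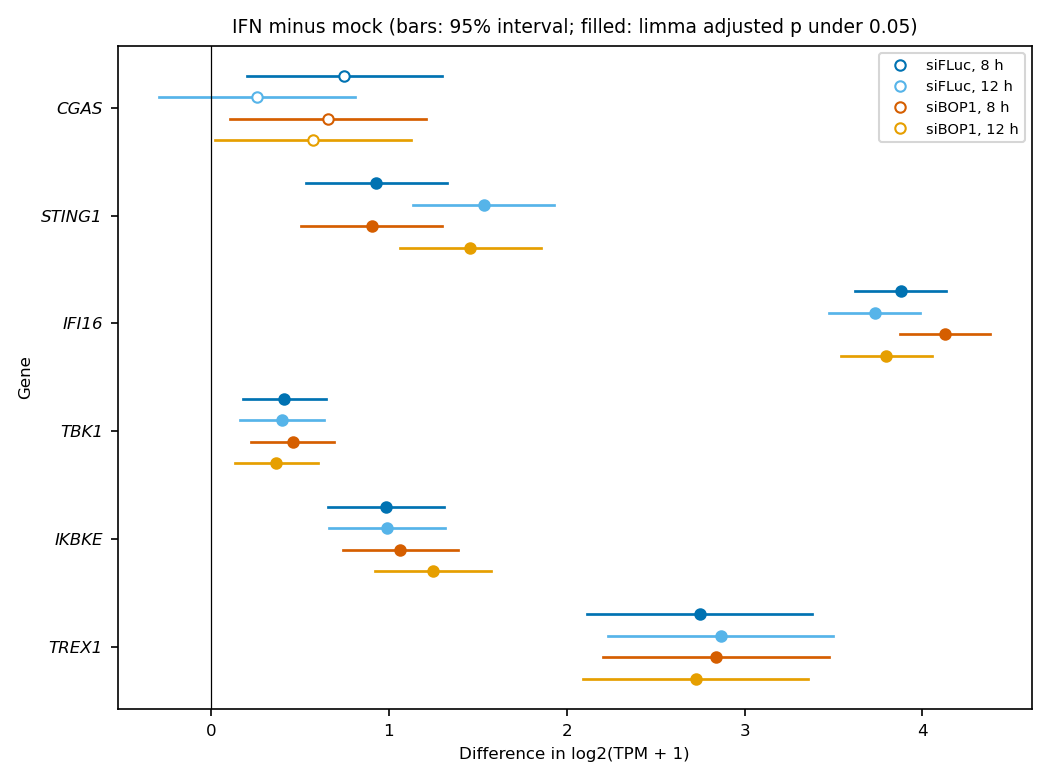
Difference in log2(TPM + 1) between IFN and mock libraries (x axis) for the 6 genes (y axis) and the 4 combinations of siRNA and time; bars are 95% intervals from limma and filled points have an adjusted p under 0.05. Differences run from 0.26 for CGAS in siFLuc cells at 12 h to 4.13 for IFI16 in siBOP1 cells at 8 h.

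CGAS, the cGAMP synthase (ENSG00000164430.16, chr6:73413515-73452276, minus strand, in GENCODE 29 on GRCh38, as for the genes that follow), was present in every mock library. In siFLuc cells at 8 h it measured 7.93, 6.19 and 8.49 TPM in mock libraries and 12.8, 12.3 and 14.7 TPM under IFN, with no overlap. In siBOP1 cells at 8 h it measured 7.58, 6.83 and 8.64 TPM in mock libraries and 12.4, 11.4 and 14.3 TPM under IFN, again with no overlap. The ratios of the means were 1.76 and 1.65. At 12 h the siFLuc mock libraries measured 6.74, 6.497 and 19.8 TPM and the IFN libraries 10.5, 10.7 and 14.4 TPM. The last mock value lay above every other CGAS value in the series, and the groups overlapped through it. In siBOP1 cells at 12 h the values were 5.98, 5.59 and 7.18 TPM in mock libraries and 9.39, 8.23 and 12.0 TPM under IFN, with no overlap.

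None of the 4 CGAS differences between IFN and mock passed the limma test over all 24 libraries. The log2 differences were 0.75 and 0.26 for the control siRNA (8 h, 12 h), then 0.66 and 0.58 after BOP1 depletion (SE 0.26 each). The adjusted p values from limma were 0.0764, 0.587, 0.102 and 0.161. Without the siFLuc mock 12 h library numbered 4, an alternative chosen after its CGAS value was seen, all 4 passed, with adjusted p of 0.0021, 0.00546, 0.00494 and 0.0131 and a siFLuc 12 h difference of 0.74. That difference fell to 0.0284 and 0.0054 without the mock library numbered 1 or 2, which leaves the 19.8 TPM library in a group of 2, and to 0.12 without the IFN library numbered 4 (adjusted p 0.969, 0.997 and 0.83). A block on the column number made CGAS pass with siFLuc at 8 h (adjusted p 0.0107) and with siBOP1 at both times (0.0189 and 0.0382), with unchanged differences. In those blocked fits 15.3%, 21.6% and 21.6% of all genes were called in either direction. With only the libraries numbered 1 and 2, all 4 passed (adjusted p 0.00121 to 0.00881), and under both rescalings those at 8 h did (0.0223 to 0.0254). In the siFLuc mock 12 h library numbered 4, TREX1 was at 2.12 TPM, against 7.45 and 5.50 TPM in the other libraries of its group, and why the library differs was not tested. In all 8 groups the library numbered 4 had the highest CGAS value of its group.

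IFI16 encodes a nuclear and cytosolic DNA sensor of the PYHIN family (ENSG00000163565.18, chr1:158999968-159055155, plus strand). In siFLuc cells at 8 h it measured 13.7, 15.0 and 11.8 TPM in mock libraries and 226, 219 and 192 TPM under IFN, a ratio of means of 15.7. At 12 h the siFLuc values were 16.7, 15.6 and 13.3 TPM without IFN and 226, 220 and 195 TPM with it, a ratio of 14.1. No mock library came near an IFN library. In siBOP1 cells IFI16 measured 10.2, 10.4 and 9.80 TPM (mock) and 215, 208 and 162 TPM (IFN) at 8 h, a ratio of 19.2. At 12 h the siBOP1 values were 14.5, 14.1 and 11.1 TPM (mock) and 207, 198 and 181 TPM (IFN), a ratio of 14.8. In each of the 8 groups, the library numbered 4 was the lowest of the 3. The log2 differences were 3.88, 3.73, 4.13 and 3.80 (SE 0.12 each), listed for siFLuc (8 h, 12 h) before siBOP1 (8 h, 12 h), an order kept for the genes that follow, with limma adjusted p from 2.13e-16 to 1.13e-15.

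STING1, the adaptor that binds cGAMP (ENSG00000184584.13, chr5:139475534-139482935, minus strand, named TMEM173 in GENCODE 29), was the lowest of the 6 genes in every group. In siFLuc cells it measured 0.28, 0.40 and 0.79 TPM in mock libraries at 8 h and 1.24, 1.67 and 2.71 TPM under IFN. At 12 h the siFLuc mock libraries measured 0.28, 0.51 and 0.26 TPM and the IFN libraries 2.97, 2.45 and 3.34 TPM. No siFLuc mock library reached an IFN library. The siBOP1 mock libraries measured 0.42, 0.44 and 0.47 TPM at 8 h and 0.28, 0.51 and 0.43 TPM at 12 h. Under IFN the siBOP1 libraries measured 1.59, 1.41 and 2.15 TPM at 8 h and 2.70, 3.59 and 2.37 TPM at 12 h. All 12 mock libraries lay under 1 TPM and all 12 IFN libraries above it. STING1 thus passed the filter through its IFN libraries alone and had to differ, so its call and its lack of overlap add nothing to the counts.

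The log2 differences of STING1 between IFN and mock were 0.93, 1.53, 0.90 and 1.46 (SE 0.19 each), and limma gave adjusted p of 0.00196, 4.24e-06, 0.00209 and 8.63e-06. These values understate the change of so low a gene. With a pseudocount of 0.1 TPM in place of 1 they were 1.77, 2.77, 1.72 and 2.57, and the means differed by ratios of 3.83, 8.31, 3.88 and 7.11. In a fit of the compared groups alone, STING1 in siFLuc cells at 8 h did not pass (adjusted p 0.0649).

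TBK1, the kinase that phosphorylates STING1 and IRF3 (ENSG00000183735.10, chr12:64451880-64502108, plus strand), was the highest of the 6 genes in mock cells and rose least of those called. In siFLuc cells it measured 30.3, 29.01 and 28.0 TPM in mock libraries and 39.1, 41.0 and 37.3 TPM under IFN at 8 h. At 12 h it measured 31.4, 28.2 and 37.1 TPM in mock libraries and 46.1, 37.9 and 44.1 TPM under IFN. The closest libraries of the last pair of groups, 37.1 and 37.9 TPM, almost met. In siBOP1 cells it measured 29.99, 27.9 and 28.5 TPM (mock) and 44.7, 38.5 and 37.1 TPM (IFN) at 8 h, and 28.4, 30.1 and 32.5 TPM (mock) and 39.2, 45.3 and 34.3 TPM (IFN) at 12 h. IFN and mock libraries did not overlap in any of the 4 comparisons, and the ratios of the means lay between 1.31 and 1.39.

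The log2 differences of TBK1 were 0.41, 0.40, 0.46 and 0.37 (SE 0.11 each), at limma adjusted p values of 0.0191, 0.0199, 0.00723 and 0.0308. These calls rested on few libraries. The call was lost in 4 of 6 fits that each left out 1 library in siFLuc cells at 8 h (without mock 2 or 4 or IFN 1 or 2, adjusted p 0.0536 to 0.0818) and in 4 of 6 at 12 h (without mock 1 or 2 or IFN 1 or 4, 0.0536 to 0.111). It was lost in 1 of 6 in siBOP1 cells at 8 h (without IFN 1, 0.0509) and in 4 of 6 at 12 h (without mock 1 or 2 or IFN 1 or 2, 0.0753 to 0.188), and in fits of the compared groups alone at 12 h (0.173 and 0.112).

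IKBKE encodes IKK-epsilon, which shares substrates with TBK1 (ENSG00000263528.8, chr1:206470476-206496889, plus strand). In siFLuc cells it measured 7.73, 7.54 and 7.41 TPM in mock libraries and 18.5, 14.1 and 15.5 TPM under IFN at 8 h. At 12 h it measured 9.72, 14.3 and 12.8 TPM in mock libraries and 24.8, 31.7 and 20.1 TPM under IFN. Each 12 h library lay above each 8 h library of the same treatment. In siBOP1 cells the values were 9.30, 9.59 and 11.1 TPM (mock) and 23.5, 21.4 and 21.0 TPM (IFN) at 8 h, and 13.6, 13.3 and 12.2 TPM (mock) and 35.5, 35.7 and 26.5 TPM (IFN) at 12 h. IFN raised IKBKE in each comparison, with ratios of means of 2.12, 2.08, 2.20 and 2.50. The log2 differences were 0.98, 0.99, 1.07 and 1.25 (SE 0.16 each), and the limma adjusted p values were 0.00013, 0.000106, 4.02e-05 and 4.96e-06. Fitted on the compared groups alone, the siFLuc 12 h difference did not pass (adjusted p 0.0507).

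The ratio of the kinases was lower with IFN, which is given as a description without a test. Per library, the ratio of TBK1 TPM to IKBKE TPM was 3.85 ± 0.069 (SD, n = 3) in siFLuc mock cells at 8 h and 2.48 ± 0.41 (SD, n = 3) under IFN. At 12 h the siFLuc ratio was 2.70 ± 0.65 (SD, n = 3) without IFN and 1.75 ± 0.51 (SD, n = 3) with it, and the libraries overlapped. In siBOP1 cells it was 2.90 ± 0.32 and 1.82 ± 0.073 (SD, n = 3 each) at 8 h, and 2.34 ± 0.29 and 1.22 ± 0.10 (SD, n = 3 each) at 12 h, with no overlap at either time. TBK1 stayed above IKBKE in all 24 libraries.

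**Figure D3:**
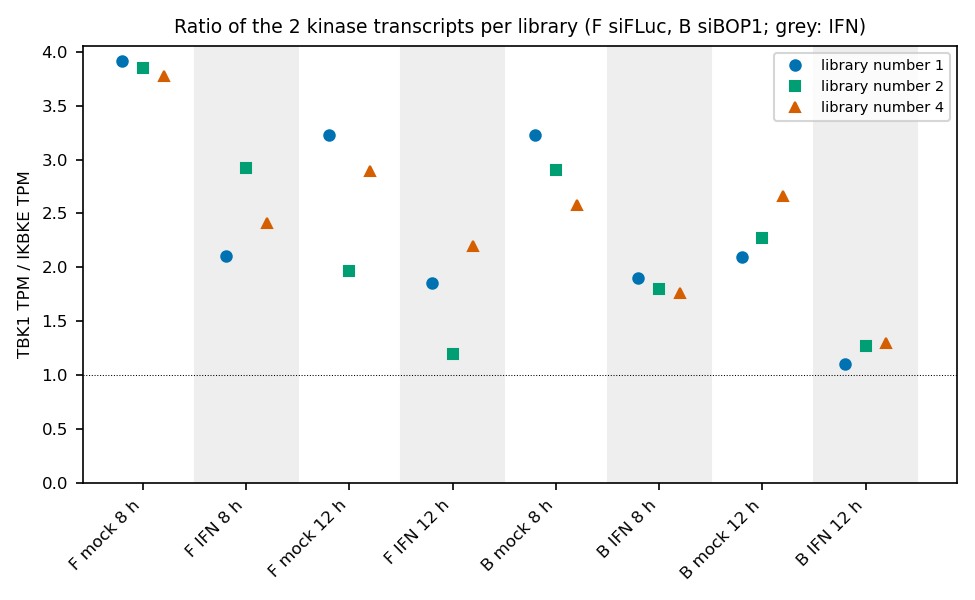
Ratio of TBK1 TPM to IKBKE TPM (y axis, linear, from 0; the dotted line marks equal levels) in each library of the 8 groups (x axis), with markers for the column number and grey for IFN. The ratio is highest in siFLuc mock cells at 8 h (3.78 to 3.92) and lowest in siBOP1 cells under IFN at 12 h (1.10 to 1.29).

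TREX1, the main cytosolic DNA exonuclease (ENSG00000213689.14, chr3:48465811-48467645, plus strand), rose with IFN in all 4 comparisons. In siFLuc cells it measured 6.01, 5.16 and 4.24 TPM in mock libraries and 39.7, 41.0 and 39.1 TPM under IFN at 8 h, a ratio of means of 7.77. The other ratios were 8.25 (siFLuc, 12 h), 8.47 (siBOP1, 8 h) and 7.25 (siBOP1, 12 h). At 12 h it measured 7.45, 5.50 and 2.12 TPM in mock libraries and 48.4, 51.3 and 24.6 TPM under IFN. In siBOP1 cells the values were 4.97, 4.57 and 5.18 TPM (mock) and 44.7, 45.7 and 34.3 TPM (IFN) at 8 h. At 12 h the siBOP1 libraries measured 7.33, 8.39 and 3.78 TPM (mock) and 47.4, 55.5 and 38.5 TPM (IFN). No group overlapped with its mock group, and in all 4 groups at 12 h the library numbered 4 was the lowest. For TREX1 the log2 differences were 2.75, 2.87, 2.84 and 2.73 (SE 0.30 each), and the adjusted p in limma lay between 4.29e-07 and 9.25e-07.

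The exons of TREX1 (1515 bases in GENCODE 29) lie wholly within exons of ATRIP on the same strand, a gene of the replication stress response whose longest transcripts read through TREX1. How reads were divided between the 2 genes is not given in the sources used here, so the level of TREX1 is uncertain to that extent. ATRIP itself lay between 5.05 and 9.34 TPM over the 24 libraries. Its difference between IFN and mock did not pass in limma in any of the 4 comparisons (adjusted p 0.323 to 0.978).

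Set against the sensor, TREX1 lay below CGAS in most mock libraries and above it in all 12 IFN libraries. The per-library ratio of TREX1 TPM to CGAS TPM was 0.697 ± 0.18 in siFLuc mock cells and 3.02 ± 0.34 with IFN at 8 h (SD, n = 3 each). After 12 h it was 0.686 ± 0.52 (0.107 in the library numbered 4) and 3.71 ± 1.74. The siBOP1 ratios were 0.641 ± 0.037 and 3.34 ± 0.84 at 8 h, then 1.08 ± 0.50 and 5.01 ± 1.76 at 12 h. Mock and IFN libraries did not overlap in any of the 4 pairs of groups.

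The order of the 6 levels changed with IFN. In mock cells TBK1 was highest with both siRNAs and at both times, followed by IFI16, then IKBKE, CGAS and TREX1, with STING1 last. IKBKE and CGAS overlapped in siFLuc mock cells at 8 h, IFI16, IKBKE, CGAS and TREX1 overlapped each with the next at 12 h, IFI16 overlapped with IKBKE in siBOP1 mock cells at both times, and TREX1 lay above CGAS by mean in siBOP1 mock cells at 12 h, with overlap. Under IFN IFI16 was highest in all 4 groups, with means of 195 to 214 TPM. TREX1 and TBK1 came next and overlapped in all 4 groups, then IKBKE, CGAS and STING1. IKBKE overlapped with CGAS in siFLuc IFN cells at 8 h, with TREX1 in siFLuc IFN cells at 12 h, and with TBK1 in siBOP1 IFN cells at 12 h.

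Depletion of BOP1 gave 0 of 6 called genes in each of the 4 comparisons with the control siRNA in the fit reported, which ignores the column number. Fits with a block on that number called IFI16 lower in mock cells and IKBKE higher under IFN, both at 8 h, as given below. In limma, the share of all genes called in either direction was 2.16% (mock, 8 h), 1.6% (mock, 12 h), 2% (IFN after 8 h) and 0.66% (IFN after 12 h). Of the 24 tests on the 6 genes, 5 had an unadjusted p under 0.05. A difference that misses the threshold does not show equal levels, and the intervals below say what sizes remain possible.

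**Figure D4:**
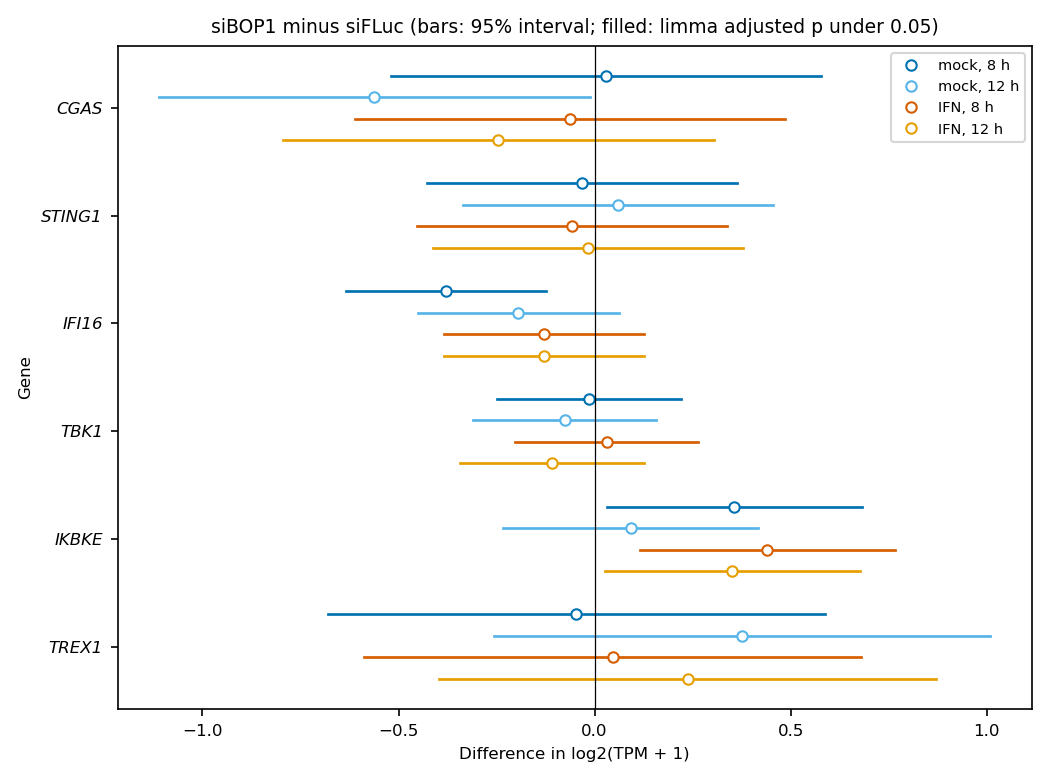
Difference in log2(TPM + 1) between siBOP1 and siFLuc libraries (x axis) for the 6 genes (y axis), in mock and IFN cells at 8 h and 12 h; bars are 95% intervals from limma, and open points did not pass an adjusted p of 0.05. All 24 points are open, with IKBKE to the right of 0 and IFI16 to the left in each comparison.

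IFI16 was lower with siBOP1 in mock cells at 8 h in every library, 9.80 to 10.4 TPM against 11.8 to 15.0 TPM. Non-overlap downward held for 1 of 6 genes there and for 7.7% of all genes. The log2 difference was -0.38 (95% interval -0.63 to -0.12), with a limma adjusted p of 0.13. A block on the column number brought it past the threshold (adjusted p 0.00345), in a fit that called 4.87% of all genes in either direction against 2.16% without the block. In the other 3 comparisons the IFI16 differences were -0.19 (mock, 12 h), -0.13 (IFN, 8 h) and -0.13 (IFN, 12 h), and the libraries overlapped.

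IKBKE was higher with siBOP1 in every library at 8 h. In mock cells its libraries spanned 9.30 to 11.1 TPM against 7.41 to 7.73 TPM, and under IFN 21.0 to 23.5 TPM against 14.1 to 18.5 TPM. Non-overlap upward held for 1 of 6 genes in each, beside 12.4% and 9.84% of all genes. The log2 differences at 8 h were 0.36 (95% interval 0.03 to 0.68, mock) and 0.44 (0.11 to 0.77, IFN), with limma adjusted p of 0.319 and 0.174. At 12 h they were 0.09 (-0.23 to 0.42, mock) and 0.35 (0.03 to 0.68, IFN), with overlapping libraries and adjusted p of 0.875 and 0.484. The mock value at 12 h turned to -0.0545 without the siFLuc library numbered 1. A block on the column number within each time brought the IFN difference at 8 h past the threshold (adjusted p 0.0459), in a fit that called 8.81% of all genes in either direction.

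For the remaining 4 genes the values were as follows. CGAS differed by -0.56 in mock cells at 12 h (95% interval -1.11 to -0.01, limma adjusted p 0.375), and by -0.0777 without the siFLuc library numbered 4. The other 3 CGAS differences ran from -0.25 to 0.03. STING1 ran from -0.06 to 0.06 over the 4 comparisons, with interval ends from -0.45 to 0.45. TBK1 ran from -0.11 to 0.03 (interval ends -0.34 to 0.27), and TREX1 from -0.05 to 0.38 (-0.68 to 1.01).

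Whether BOP1 depletion changed the IFN response, and whether that response differed between 8 h and 12 h, was tested as a difference of differences. In limma 0 of 6 genes were called in either siRNA by IFN test, where 0% of all genes were, or in the time by IFN tests, where 0.00623% were in siFLuc cells and 0% in siBOP1 cells. Over these 24 tests the log2 values ran from -0.49 to 0.60, and 1 had an unadjusted p under 0.05. That was STING1 in siFLuc cells, whose IFN difference was 0.60 larger at 12 h than at 8 h (95% interval 0.04 to 1.16, adjusted p 1). In siBOP1 cells the corresponding STING1 value was 0.55 (-0.01 to 1.11, adjusted p 1).

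The levels at 12 h and 8 h were also compared directly, a set of 4 comparisons added after the values had been seen. IKBKE was the only one of the 6 genes whose libraries at 12 h lay wholly above those at 8 h in all 4. The share of all genes that did so in all 4 at once was not computed. In siFLuc cells, non-overlap upward held for 1 of 6 genes and 10.6% of all genes (mock), and 1 of 6 and 16.7% (IFN). In siBOP1 cells it held for 2 of 6 and 11.7% (mock), and 2 of 6 and 18.4% (IFN). The IKBKE log2 differences were 0.62, 0.63, 0.35 and 0.54 (SE 0.16 each) in that order. In limma IKBKE was called under IFN in siFLuc cells (adjusted p 0.0304), where 1 of 6 genes and 2.83% of all genes were called higher, and not in the other 3 (0.102, 0.474 and 0.0651). The siFLuc call was lost without the IFN library numbered 1 or 2 at 12 h or numbered 2 or 4 at 8 h (adjusted p 0.0685 to 0.137), under both rescalings (0.0998 and 0.145) and with a block within each time (0.0696). With the column number as a block, IKBKE also passed in siFLuc mock cells (adjusted p 0.0481) and in siBOP1 cells under IFN (0.0404), where the blocked fits called 1.56% and 7.05% of all genes in either direction. IFI16 in siBOP1 mock cells differed by 0.34 (adjusted p 0.34) and passed with that block (0.0244). STING1 under IFN differed by 0.47 (siFLuc) and 0.51 (siBOP1), with limma adjusted p of 0.174 and 0.15, and its libraries overlapped in siFLuc cells and not in siBOP1 cells. At 12 h 0.118%, 0.137% and 2.45% of all genes were called higher in siFLuc mock, siBOP1 mock and siBOP1 IFN cells.

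For each gene the 3 genes with the most similar log2 values over the 24 libraries were listed by Pearson r, as a description. The libraries share their treatment and column number, so high values are frequent. IFI16 was closest to TRIM22, MX1 and IFIT2 (0.997 each) and TREX1 to IL18BP (0.992), IFIT3 (0.982) and SHFL (0.981). STING1 was closest to IL4I1 (0.949), CXCL11 (0.946) and B2M (0.945), and IKBKE to NECTIN2 (0.972), NAMPT (0.968) and ACP2 (0.954). Because STING1 passed the filter through its IFN libraries alone, its list follows the split by treatment and adds no support. TBK1 was closest to MCL1 (0.94), PLAUR (0.933) and OTUD4 (0.927), and CGAS to TOP1 (0.939), NEDD1 (0.921) and MAP3K14 (0.906). Without the siFLuc mock 12 h library numbered 4, the CGAS genes were TOP1 (0.961), MAP3K14 (0.944) and NUP160 (0.941). Among the 6 genes, IFI16 and TREX1 were most alike (0.975) and CGAS and IKBKE least (0.424).

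Beyond the 6 genes, 62 further genes of DNA sensing in 7 lists by role were followed, of which 53 were tested. With IFN in siFLuc cells, 11 were called higher and 3 lower after 8 h, and 12 higher and 1 lower after 12 h. The siBOP1 counts were 12 higher and 3 lower (8 h), then 13 higher and 3 lower (12 h). Each count of genes called higher includes ZBP1 and CXCL10. Both passed the filter through their IFN libraries alone and had to differ, so their calls add nothing to the counts. Of all genes, 5.77%, 7.06%, 5.99% and 7.17% were called higher in these 4 comparisons and 5.07%, 6.43%, 9.11% and 7.58% lower. The lists' median log2 differences, -0.01, 0.06, -0.02 and 0.09, lay near 0, and most of the 53 genes were called in neither direction.

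**Figure D5:**
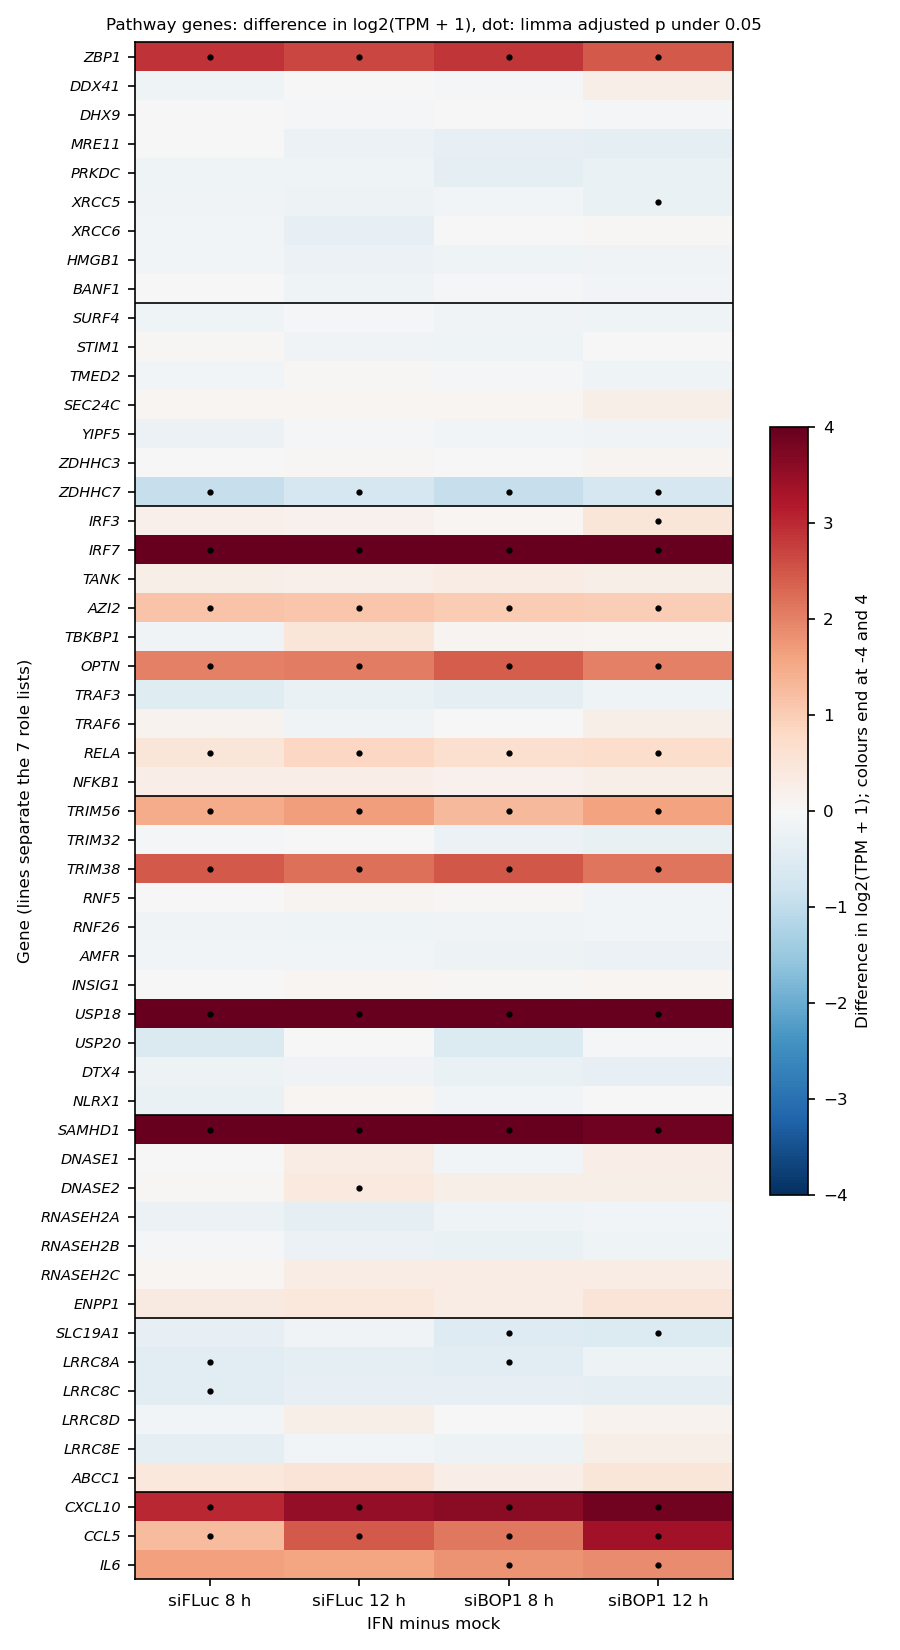
Difference in log2(TPM + 1) between IFN and mock libraries (colour) for the 53 tested genes of the 7 role lists (rows) in the 4 combinations of siRNA and time (columns); dots mark a limma adjusted p under 0.05. Most rows are pale, and IRF7, USP18, SAMHD1 and CXCL10 are the strongest rows.

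Among 12 other DNA sensors, of which 9 were tested, ZBP1, a sensor of Z-form nucleic acid, was called higher in all 4 IFN comparisons. It was listed at 0 in all mock libraries but 1, at 0.032 TPM, so no fold is given, and stood at 3.75 to 8.13 TPM under IFN. It passed the filter through its IFN libraries alone. XRCC5 was called lower in siBOP1 cells at 12 h, and AIM2, PYHIN1 and MNDA were too low to test. Of 7 genes for STING traffic and palmitoylation, ZDHHC7, a Golgi palmitoyltransferase that acts on STING, was lower in all 4 comparisons, as were 1.92% of all genes tested. In siFLuc cells at 8 h it averaged 35.3 ± 0.18 TPM without IFN and 18.5 ± 2.74 TPM with it (SD, n = 3 each), with log2 differences of -0.91, -0.68, -0.94 and -0.68 (limma adjusted p 0.000395 to 0.00734). The 12 h calls were lost without the siFLuc IFN library numbered 1 (adjusted p 0.0651) or the siBOP1 mock library numbered 4 (0.0547), and with only the compared groups in siFLuc cells (0.104).

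Of 10 kinase scaffolds and transcription factors, 4 were higher with IFN in all 4 comparisons, as were 4.47% of all genes tested. IRF7, the IRF3 relative that amplifies interferon production, averaged 3.47 ± 1.20 TPM in siFLuc mock cells and 294 ± 18.3 TPM with IFN at 8 h (SD, n = 3 each), with log2 differences of 6.08, 5.56, 6.21 and 5.92. OPTN, an adaptor of TBK1, rose by 2.01 to 2.43, and AZI2, a TBK1 scaffold, by 1.00 to 1.16, although AZI2 did not pass in siFLuc cells at 12 h with only the compared groups (limma adjusted p 0.0796). RELA, a subunit of NF-kB, rose by 0.49 to 0.82 and is named to complete the count of 4. IRF3, the direct substrate of TBK1, differed by 0.19, 0.16, 0.06 and 0.48 and was called in siBOP1 cells at 12 h alone (limma adjusted p 0.0183). That call was lost in 4 of 6 fits that each left out 1 library (mock 1 or 2, IFN 1 or 4, adjusted p 0.0641 to 0.0728).

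Of 11 ubiquitin ligases and other regulators, 3 were higher in all 4 comparisons, beside the same 4.47% of all genes. USP18, a protease that removes ISG15 and restrains interferon signalling, rose by 4.28 to 4.91, although reads of its near-identical relatives may be split in ways the sources do not give. TRIM38 rose by 2.13 to 2.47 and TRIM56 by 1.29 to 1.67, both ubiquitin ligases. Of 8 genes for nucleases and cGAMP breakdown, SAMHD1, which degrades deoxynucleotides, rose by 3.90 to 4.16. Its siFLuc means at 8 h were 10.7 ± 0.40 TPM (mock) and 209 ± 27.4 TPM (IFN; SD, n = 3 each). DNASE2 was called higher in siFLuc cells at 12 h. Of 6 genes for cGAMP transport, none was called in all 4 comparisons, and 2, 0, 2 and 1 were lower (LRRC8A and LRRC8C, SLC19A1 with LRRC8A, and SLC19A1 alone). The shares of all genes called lower there were 5.07%, 6.43%, 9.11% and 7.58%.

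Of 8 output cytokines, 3 were tested. CXCL10 was at most 0.258 TPM in mock libraries and 7.77 to 15.3 TPM under IFN, and passed the filter through its IFN libraries alone. CCL5 rose by 1.26, 2.46, 2.12 and 3.37 on the log2 scale, and its siFLuc 8 h call was lost without the mock library numbered 1 or 4 or the IFN library numbered 2 or 4 (limma adjusted p 0.0691 to 0.183). Without mock 4 the difference was 0.83. IL6 was called in siBOP1 cells at both times and not in siFLuc cells, and neither siRNA by IFN test called it. At 8 h it went from 5.39, 5.08 and 8.80 TPM to 20.6, 21.0 and 23.6 TPM with siFLuc, also without overlap. With siBOP1 it went from 5.17, 4.80 and 4.59 TPM to 21.4, 24.9 and 13.4 TPM. At 12 h the siFLuc libraries numbered 4 stood far above the others (6.32, 4.99 and 49.2 TPM in mock, 25.3, 27.0 and 78.5 TPM under IFN). IFNB1, the gene of interferon beta itself, was listed at 0 in all mock libraries and did not exceed 0.294 TPM in any library.

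With siBOP1, 1 pathway gene was called in the same direction in all 4 comparisons. XRCC6, a subunit of the Ku DNA end-binding complex, was lower, at 113 ± 1.91 TPM against 303 ± 12.8 TPM in the control at 8 h without IFN (SD, n = 3 each). Its log2 differences were -1.42 and -1.49 in mock cells (8 h, 12 h) and -1.32 and -1.13 under IFN, with limma adjusted p from 7.2e-07 to 2.78e-05. The last did not pass with only the compared groups (0.229), a fit that called 1 gene in all and in which BOP1 did not pass either (0.224). XRCC6 was the 1 gene of 53 called lower in each of the 4 comparisons, where 0.666%, 0.697%, 0.76% and 0.268% of all genes were. Called higher were 0, 2, 1 and 0 of the 53, beside 1.49%, 0.903%, 1.25% and 0.392% of all genes. These were TMED2 and SURF4, which serve STING traffic, in mock cells at 12 h, and DNASE2 under IFN at 8 h.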

How the data were processed

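The deposited table gives TPM for 60609 gene rows in 24 columns. The authors scaled each column to 1000000, per the values of the file. Aligner, quantifier, build and annotation are not given in the sources used here. RNA was extracted with a DNase step and libraries were made with a stranded poly(A) kit, per the labels' protocols. TPM is a share, so it keeps no depth, and the rise of some genes lowers others.

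Of the columns, 16 matched a labelled replicate. The other 8 (1 per group, numbered 4) counted only as libraries of their group. Symbols were matched by gene ID for 60295 rows. Coordinates are from GENCODE 29 on GRCh38, where the ID version of IFI16 matched the table and those of the other 5 genes differed.

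Genes at 1 TPM or more in at least 3 libraries entered limma (version 3.58.1, R 4.3.3) on the log2(TPM + 1) scale (mean-variance trend, 8 group means over 24 libraries, no block), with Benjamini-Hochberg adjustment within a comparison and a threshold of 0.05. Differences are on this scale. There were 16 comparisons, 4 of them added later. The script was tested on simulated data. The members and lists were chosen with earlier results of these data known. Named beyond the 6 genes were BOP1, IRF3, IRF7, up to 3 genes per list called in 1 direction in all 4 IFN or all 4 siRNA comparisons, and the 3 most similar genes per member. Genes named outside this rule (RELA, XRCC5, DNASE2, IL6, ATRIP, TMED2, SURF4, LRRC8A, LRRC8C, SLC19A1, IFNB1) were chosen after their values were seen.

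Deviations of same-numbered libraries from their group means correlated at 0.115 to 0.508 across genes in all 24 values, above the 0.1 set for pairing, so blocked values stand beside results whose call they change. The alternatives were the pseudocount, 2 filters, 2 rescalings, no trend, only the groups compared, the block, the block within each time, each library left out, and libraries 1 and 2 alone.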

Additional observations from a re-analysis of the deposited data

How the results depend on the processing

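The IFN responses of IFI16 and TREX1 kept their direction and call under every alternative run. Those of STING1 and IKBKE did so in every alternative that tested them except the fits of only the groups compared named above. STING1 passed the filter of the fit reported through its IFN libraries alone, so its steady call adds no support. STING1 was not tested under the filter at a mean of 5 TPM, which it does not pass. TBK1 and CGAS were the unstable calls. Fitted on the compared groups alone, 3 of 6 genes were called higher by IFN in siFLuc cells at 12 h. Over all genes that fit called 951 in either direction, against 2166 in the fit reported. The lower count is therefore not read as a result about the 6 genes. With the replicate block, 1 gene (IFI16) was called lower with siBOP1 in mock cells at 8 h, likewise with the block within each time and with the libraries numbered 1 and 2 alone (1 each), while the blocked fits called 4.87% and 8.49% of all genes in either direction there. The block within each time called 1 gene (IKBKE) higher under IFN at 8 h, beside 8.81% of all genes. For 12 h against 8 h, genes called higher in siFLuc IFN cells were 0 with no filter, both rescalings, the block within each time and only the groups compared, and 0 to 1 with a library left out. In siFLuc mock cells the replicate block gave 1 (1.56% of all genes). In siBOP1 mock cells the block gave 1 (0.884%), the block within each time 1 (2.28%) and libraries 1 and 2 alone 2. In siBOP1 IFN cells the replicate block (7.05% of all genes) and libraries 1 and 2 alone gave 1 each, and leaving out a library 0 to 1. The share of all genes is not given for libraries 1 and 2 alone or with a library left out. Those counts are therefore not read as a result about the 6 genes. Leaving aside the fits without 1 library, CGAS passed with IFN in 6 of 10 alternatives at 8 h with either siRNA. At 12 h it passed in 1 of 10 with siFLuc and 3 of 10 with siBOP1. Beyond these calls and those given above, the pairing by column number changed no call on the 6 genes. Without 1 library, IRF3 in siBOP1 cells at 8 h under IFN ran from -0.0167 to 0.15, and IKBKE for siBOP1 in mock cells at 12 h from -0.0545 to 0.20.

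Over all genes, the counts called by IFN ran from 1186 to 3370 (1741 in the fit reported), 951 to 4326 (2166), 1995 to 4653 (2426) and 1634 to 4487 (2370), and by siBOP1 from 41 to 1364 (347), 10 to 1231 (257), 23 to 1415 (322) and 1 to 606 (106), lowest with only the groups compared except for siBOP1 cells at 8 h (a filter at a mean of 5 TPM) and highest with the block within each time. Median-of-ratios rescaling moved the median of all genes in siBOP1 cells at 8 h from -0.14 to -0.01. TPM gives no depth, so precision rests on 3 libraries a group. Low genes such as STING1, at under 1 TPM in mock cells, are the least certain.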
